A study of Mus musculus with 4 samples.

Results

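The HoxB cluster was examined in dorsal root ganglia of the mouse, which hold the cell bodies of sensory neurons beside the spinal cord. Its members were the 10 genes Hoxb1 to Hoxb9 and Hoxb13, and every probe set that the platform annotation assigns to them was taken, whatever its value. Of the 10 genes, 9 had at least 1 probe set of their own, 11 probe sets in all, out of 18193 named genes on the array. Hoxb8 had none of its own. It was represented only by a probe set that the annotation assigns to both Hoxb8 and Hoxb7, which brought the HoxB probe sets to 12 and is named here by both genes.

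Total RNA of freshly dissected ganglia had been hybridised to Affymetrix mouse arrays, 4 in all. The labels put 2 arrays at the sample-2 level and 2 at the sample-1 level, levels of ganglia that they do not name, and give no genotype, strain, age or treatment beyond the dissection. Whether the arrays of a level stem from different animals is not stated, and the p-values therefore cover just the spread among these arrays, possibly a technical spread. The median intensity was 25.8 to 27.2 on the 4 arrays. Sensory neuron markers stood high on every array, with a summed intensity over 14 markers of 55856 and 52261 at the sample-2 level and 51757 and 52573 at the sample-1 level. Of 12 markers of spinal cord neurons and glia, 9 lay below the filter on low signal.

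HOX genes encode homeodomain transcription factors and lie in 4 clusters in mammals. Within a cluster the genes are numbered by paralog group, and genes of lower number are in general switched on earlier and further towards the head than those of higher number. The combination of HOX proteins in a cell helps to set its position along the body axis, in spinal cord, neural crest and the ganglia derived from it, and in mesoderm. HOX proteins bind DNA together with PBX and MEIS cofactors, and retinoic acid and CDX factors are known to regulate their clusters.

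RefSeq promoter sequences (GRCm38.p6) were on hand for 3 of the 10 members, Hoxb8, Hoxb4 and Hoxb1. They are shown to describe the short motifs of these regulators that they hold, and a link of motifs to signal was not tested. Hoxb1 lay under the filter on low signal at both levels, Hoxb4 overlapped between levels, and the probe set of Hoxb8 and Hoxb7 did not overlap. Each sequence gives the 250 bases before the annotated start, on the plus strand. Capitals mark TGATNNAT (the PBX-HOX motif), TTTATG (the CDX motif) and AGGTCA (the half-site of retinoic acid receptors), searched on both strands. The windows lie at chr11:96281655-96281904 for Hoxb8, chr11:96318017-96318266 for Hoxb4 and chr11:96365508-96365757 for Hoxb1.
Hoxb8: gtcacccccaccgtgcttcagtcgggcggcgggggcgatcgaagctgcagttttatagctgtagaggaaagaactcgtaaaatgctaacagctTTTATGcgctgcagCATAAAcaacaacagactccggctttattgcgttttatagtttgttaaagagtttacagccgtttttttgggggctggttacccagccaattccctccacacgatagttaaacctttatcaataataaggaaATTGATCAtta
Hoxb4: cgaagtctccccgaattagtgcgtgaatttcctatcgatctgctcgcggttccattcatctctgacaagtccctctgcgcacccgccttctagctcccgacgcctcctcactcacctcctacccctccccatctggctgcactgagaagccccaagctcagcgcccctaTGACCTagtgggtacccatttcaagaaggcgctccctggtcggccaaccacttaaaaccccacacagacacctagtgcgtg
Hoxb1: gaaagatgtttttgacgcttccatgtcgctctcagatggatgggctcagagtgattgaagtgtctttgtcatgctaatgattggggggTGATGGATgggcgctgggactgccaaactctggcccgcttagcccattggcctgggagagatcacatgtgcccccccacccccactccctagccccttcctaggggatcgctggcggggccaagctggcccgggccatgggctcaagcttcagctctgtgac

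The Hoxb8 window held 2 matches to TTTATG, which overlapped no other searched motif, and 1 to TGATNNAT near its end. The Hoxb4 window held 1 match to AGGTCA and the Hoxb1 window 1 to TGATNNAT, and such PBX-HOX sites are known from the self-regulation of mouse Hoxb1 in the hindbrain. Among 32841 promoter windows of the same length, 10.8% held TTTATG, 7.69% held TGATNNAT and 14% held AGGTCA. The GC content was 44.4% for Hoxb8, 58% for Hoxb4 and 59.2% for Hoxb1, against a median of 52.4% over all windows. The count of CpG dinucleotides was 12, 14 and 7 in the same order, against a median of 6. A match is a description of these letters and not of a bound site.

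The values are intensities that the authors deposited, scaled to a common mean, in arbitrary units. Differences are sample-2 level minus sample-1 level on the log2(intensity + 16) scale, which shrinks the differences of dim probe sets. A probe set was tested if its mean lay at or above the 40th percentile of all, an intensity of about 14.3, and counted as past the threshold at a Benjamini-Hochberg adjusted p under 0.05 in limma. Of the 12 HoxB probe sets 9 were tested and 3, those of Hoxb1, Hoxb7 and Hoxb13, were not. In whole ganglia, fewer cells of a type and less RNA per cell cannot be told apart. Intensities of different probe sets are not set against each other, since probes differ in brightness.

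Of the 9 tested HoxB probe sets, 0 passed the threshold in limma, where 0.622% of the 27022 probe sets tested passed, 0.222% being higher and 0.400% lower. All 9 measured lower on average at the sample-2 level, as did 48.9% of all tested probe sets. An unadjusted p under 0.05 was found for 4 of the 9, all lower, against 5.53% of all tested probe sets that were lower by this rule. Those 4 were the probe sets of Hoxb5, Hoxb6, Hoxb8 and Hoxb7, and Hoxb9. Without sample-1 array 2 the number was 2, and without any other array it was 3. The arrays of the 2 levels did not overlap for 5 of the 9, all lower, and 20.1% of all tested probe sets were lower without overlap. The 9 probe sets were measured on the same 4 arrays and are not independent of each other.

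**Figure D1:**
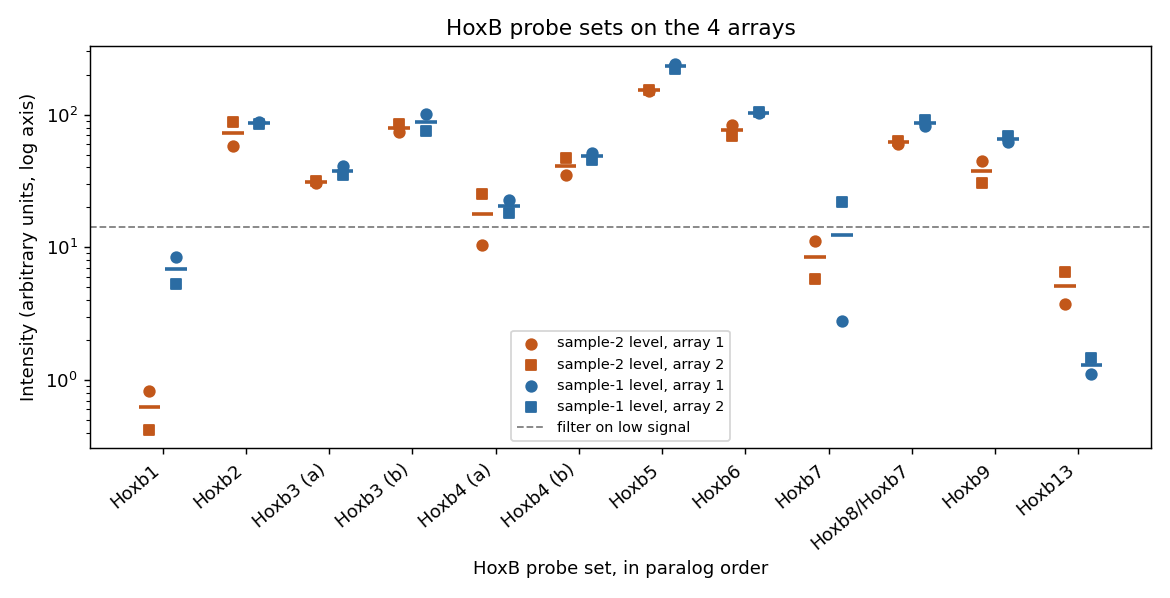
Intensity (log axis, arbitrary units) of the 12 HoxB probe sets in paralog order, a point for each array, with sample-2 arrays left of sample-1 arrays, bars at the mean of each level, and a dashed line at the filter on low signal (14.3). The letters a and b tell apart 2 probe sets of a gene. Hoxb1, Hoxb3 (a), Hoxb5, Hoxb6, Hoxb8/Hoxb7 and Hoxb9 have both sample-2 arrays below both sample-1 arrays. Hoxb13 has both sample-2 arrays above both sample-1 arrays. Of all tested probe sets, 20.1% were lower and 21.1% higher without overlap. The probe sets of Hoxb1, Hoxb7 and Hoxb13 average below the line at both levels.

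Hoxb5, a gene known for its role in neural crest and lung, had intensities of 151 and 153 on the sample-2 arrays and 240.0 and 222 on the sample-1 arrays. Both sample-2 arrays were below both sample-1 arrays, and the sample-2 arrays were almost equal. The mean was 152 ± 0.984 at the sample-2 level and 231 ± 12.5 at the sample-1 level (SD, n = 2 each), or 34.2% lower. The difference of -0.55 ± 0.12 (log2 ± SE) had the smallest adjusted p of the HoxB probe sets and did not pass (limma, adjusted p = 0.0736). Leaving out any array gave -0.61 to -0.50, and adjusted p values of 0.150 to 0.245.

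Hoxb6, its neighbour in the RefSeq gene table, measured 83.9 and 69.2 on the sample-2 arrays and 103 and 105 on the sample-1 arrays. The levels did not overlap, and the arrays of the sample-1 level were nearly equal. The mean was 76.6 ± 10.4 at the sample-2 level and 103.8 ± 1.21 at the sample-1 level (SD, n = 2 each). The difference of -0.38 ± 0.16 did not pass (limma, adjusted p = 0.397).

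Hoxb8 is known in mice for roles in spinal sensory circuits and in microglia, and its loss causes excessive grooming. The probe set of Hoxb8 and Hoxb7 measured 59.9 and 63.8 on the sample-2 arrays and 81.9 and 91.4 on the sample-1 arrays. The levels did not overlap, with a difference of -0.40 ± 0.16 (limma, adjusted p = 0.379). The probe set of Hoxb7 alone measured 11.1 and 5.74 on the sample-2 arrays and 2.77 and 21.9 on the sample-1 arrays. It scattered most on the sample-1 arrays, overlapped between levels and averaged below the filter. The signal of the shared probe set can come from either gene, and which of them gave it was not tested.

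Hoxb9, the highest-numbered member before the gap that separates Hoxb13, helps to set thoracic identity in mice. It measured 45.0 and 30.5 on the sample-2 arrays and 62.6 and 69.0 on the sample-1 arrays. Both sample-2 arrays were again the lower ones, and they differed from each other by -0.39 on the log2 scale. The difference between levels was -0.62 ± 0.20, the largest in size of the tested HoxB probe sets, and did not pass (limma, adjusted p = 0.239). The mean was 42.6% lower at the sample-2 level, and the difference was -0.82 to -0.42 when any array was omitted, with adjusted p values of 0.160 to 0.597.

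Hoxb2 to Hoxb4, genes known for patterning the hindbrain and upper neck, overlapped more between levels. Hoxb2, which helps to form the facial motor nucleus, measured 57.9 and 88.4 on the sample-2 arrays and 87.3 and 84.5 on the sample-1 arrays. Only sample-2 array 1 was low, and the difference of -0.21 ± 0.19 (limma, adjusted p = 0.742) became 0.03 without it. The gap between the sample-2 arrays, 0.50, was larger than the difference between levels.

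The brighter of the Hoxb3 probe sets measured 74.4 and 85.2 on the sample-2 arrays and 101.0 and 75.6 on the sample-1 arrays. Sample-1 array 1 was the high one, the levels overlapped, and the difference of -0.11 ± 0.17 (limma, adjusted p = 0.868) became 0.06 without that array. The dimmer Hoxb3 probe set measured 30.3 and 31.4 on the sample-2 arrays and 40.9 and 34.9 on the sample-1 arrays. It did not overlap, at -0.20 ± 0.21 (limma, adjusted p = 0.798), so the probe sets of Hoxb3 disagree on overlap while both lie below 0.

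Hoxb4, known for its action in blood stem cells, had intensities of 35.2 and 47.0 on the sample-2 arrays and 51.3 and 45.9 on the sample-1 arrays by its brighter probe set. Its dimmer probe set measured 10.4 and 25.3 on the sample-2 arrays and 22.8 and 18.2 on the sample-1 arrays. Both overlapped between levels, and sample-2 array 1 was the lowest array for both. The differences were -0.18 ± 0.20 and -0.14 ± 0.29 (limma, adjusted p = 0.805 and 0.911). Without sample-2 array 1 that of the brighter probe set was -0.04, and without sample-2 array 2 it was -0.33.

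The ends of the cluster gave little signal. Hoxb1, an early gene of the hindbrain, measured 0.825 and 0.420 on the sample-2 arrays and 8.40 and 5.28 on the sample-1 arrays. Hoxb13, a gene of the tail end and the prostate, measured 3.72 and 6.50 on the sample-2 arrays and 1.11 and 1.47 on the sample-1 arrays. Neither overlapped between levels, yet all 8 values lay under the filter, and no detection call was used here, so no fold is given for them.

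**Figure D2:**
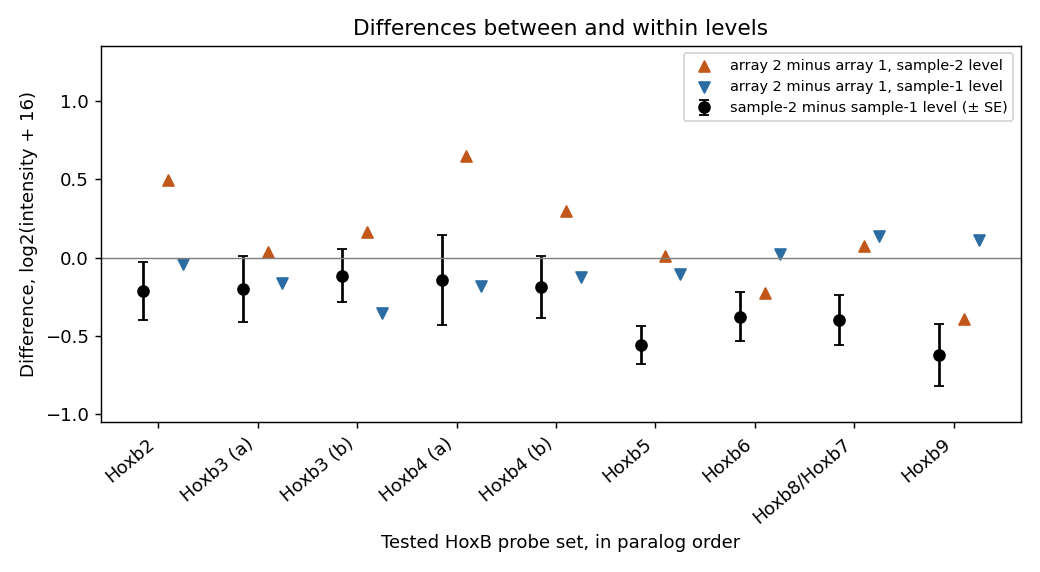
Differences on the log2(intensity + 16) scale for the 9 tested HoxB probe sets in paralog order: black points give sample-2 minus sample-1 level with the SE of the fit, orange triangles array 2 minus array 1 of the sample-2 level, and blue triangles array 2 minus array 1 of the sample-1 level. The black point lies below 0 for all 9, where 48.9% of all tested probe sets were lower. It is larger in size than both triangles for 5. The share of all tested probe sets for which this holds was not computed, so the count is not read as a result about these genes.

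Read along the cluster, the tested probe sets split at Hoxb4 and Hoxb5, a split made after the values were seen and therefore not tested. From Hoxb5 to Hoxb9 the levels did not overlap for 4 of 4 probe sets, and the sample-2 means were 26.2% to 42.6% lower. From Hoxb2 to Hoxb4 they did not overlap for 1 of 5, a share near that of all tested probe sets (20.1%), and the sample-2 means were 9.65% to 18.6% lower. Within the sample-2 level, array 2 was above array 1 for 7 of the 9 probe sets, and Hoxb6 and Hoxb9 were the exceptions. By each gene's brightest tested probe set, the median difference over 6 HoxB genes was -0.30, against -0.01 over all 13543 tested genes. Without sample-2 array 2 it was -0.38.

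**Figure D3:**
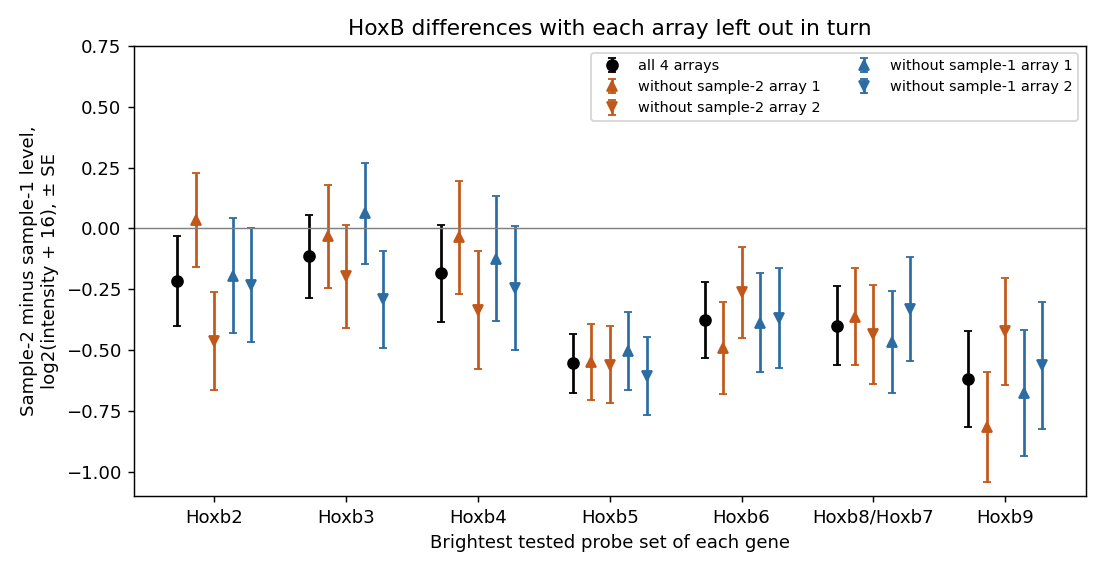
Sample-2 minus sample-1 level on the log2(intensity + 16) scale (± SE of the fit) for the brightest tested probe set of each HoxB gene and the probe set of Hoxb8 and Hoxb7, with all 4 arrays (black) and with each array left out in turn. Hoxb5 stays between -0.61 and -0.50, Hoxb9 between -0.82 and -0.42, and Hoxb2 spans -0.46 to 0.03.

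The only other RNA inside the cluster with a probe set was Hoxb5os, a long noncoding RNA whose gene overlaps Hoxb5 and Hoxb6 in the RefSeq table. It measured 52.2 and 79.4 on the sample-2 arrays and 67.8 and 73.3 on the sample-1 arrays. The sample-2 arrays enclosed both sample-1 arrays, so the levels overlapped, with a difference of -0.10 ± 0.19 (limma, adjusted p = 0.906) that became 0.14 without sample-2 array 1. The nearest named genes on the array were taken as well, 5 on each side of the cluster. Of these 10 genes 8 were tested and 0 passed in limma, 1 had an unadjusted p under 0.05 (10.9% of all tested probe sets did), and their median difference was -0.04. The largest difference among the tested genes on the Hoxb13 side was that of Ttll6, a tubulin polyglutamylase, at 46.5 and 34.2 on the sample-2 arrays and 23.4 and 30.1 on the sample-1 arrays (0.40 ± 0.22, limma, adjusted p = 0.567), and was 0.24 without sample-2 array 1. Among the tested genes on the Hoxb1 side it was that of the pseudogene Gm11517 at -0.34 ± 0.31 (limma, adjusted p = 0.757), which was 0.20 without sample-1 array 1. Skap1, the nearest of the 5 genes on that side and an adaptor protein of T cells, was not tested because its mean lay below the filter, with 16.4 and 15.3 on the sample-2 arrays and 10.7 and 4.81 on the sample-1 arrays.

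Paralogs are the genes of the same number in the other clusters, which arose by duplication and encode similar proteins. The following values are those of each gene's brightest tested probe set. In the lowest groups, Hoxd1 measured 358.1 and 358.0 on the sample-2 arrays and 354 and 380 on the sample-1 arrays, a difference of -0.03 ± 0.10. Hoxa2 differed by -0.30 ± 0.26, beside -0.21 for Hoxb2. The sample-2 values of Hoxa2, 13.8 and 11.5, both lay under the filter on low signal. Hoxa2 was therefore tested only through its sample-1 values, 18.9 and 19.7. Hoxa3 differed by 0.38 ± 0.26 and Hoxd3 by 0.39 ± 0.24, beside -0.11 for Hoxb3, and the other tested probe set of Hoxa3 was at -0.24. The Hoxa3 value was 0.019 without sample-2 array 2 and 0.14 without sample-1 array 1, and that of Hoxd3 was 0.23 without sample-1 array 2. Hoxc4 differed by -0.14 ± 0.17, beside -0.18 for Hoxb4, and was -0.0063 without sample-1 array 1 and -0.28 without array 2. None of these paralogs passed (limma, adjusted p from 0.616 for Hoxd3 to 0.949 for Hoxd1).

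In the middle groups the HoxB genes had paralogs below 0 in HoxA and HoxC and above 0 in HoxD. Hoxa5 differed by -0.11 ± 0.17, beside -0.55 for Hoxb5, and was 0.13 without sample-2 array 1 and -0.34 without array 2, with its other tested probe set at -0.30. Hoxc6 measured 45.0 and 45.6 on the sample-2 arrays and 72.7 and 79.3 on the sample-1 arrays (-0.59 ± 0.17, limma, adjusted p = 0.186), beside -0.38 for Hoxb6. Hoxa7 measured 93.3 and 94.1 on the sample-2 arrays and 132 and 126 on the sample-1 arrays (-0.40 ± 0.14, limma, adjusted p = 0.283). The levels did not overlap for Hoxc6 or Hoxa7. The other tested probe sets of Hoxc6 were at -0.34 and -0.18.

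In group 8, Hoxc8 measured 45.2 and 51.9 on the sample-2 arrays and 117 and 109 on the sample-1 arrays and fell (-0.999 ± 0.16, limma, adjusted p = 0.0205). That call was lost without sample-1 array 1 (adjusted p = 0.0916) or array 2 (adjusted p = 0.0543). Hoxd8 differed by 0.10 ± 0.11 by its brightest probe set. Its other tested probe set was at 0.45 ± 0.13 without overlap (limma, adjusted p = 0.165), so the probe sets of Hoxd8 disagree in size. In group 9, Hoxd9 measured 309 and 264 on the sample-2 arrays and 145 and 152 on the sample-1 arrays and rose by 0.87 ± 0.13 (limma, adjusted p = 0.0109). Hoxa9 differed by -0.07 ± 0.10 and Hoxc9 by -0.26 ± 0.17, beside -0.62 for Hoxb9. The Hoxc9 value rested on single sample-1 arrays, being -0.031 without array 1 and -0.50 without array 2. Hoxc8 and Hoxd9 both lost their calls without the filter on low signal (limma, adjusted p = 0.270 for Hoxc8 and 0.177 for Hoxd9) and without the intensity trend (0.333 and 0.386). Whether the HoxB differences differ from those of their paralogs was not tested.

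**Figure D4:**
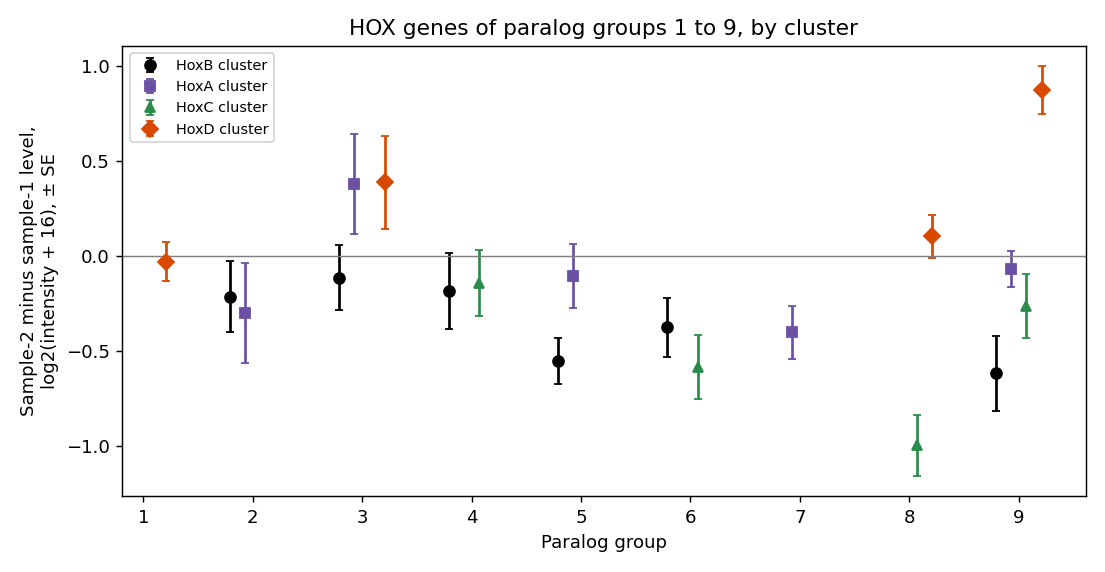
Sample-2 minus sample-1 level on the log2(intensity + 16) scale (± SE of the fit) against the paralog group, for the brightest tested probe set of each HOX gene of groups 1 to 9, by cluster. The 6 HoxB genes lie below 0, from -0.62 for Hoxb9 to -0.11 for Hoxb3, and the HoxD genes of groups 8 and 9 lie above 0.

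The partners and regulators of HOX genes were given by lists, with each gene's brightest tested probe set. Of 8 tested HOX cofactors of the PBX, MEIS and PKNOX families, 0 passed in limma and 0 had an unadjusted p under 0.05. Their median difference was 0.03 and the largest in size that of Pknox2, at 0.14 ± 0.11 (adjusted p = 0.711). Of 23 tested chromatin regulators, which include the Polycomb and Trithorax proteins that keep HOX genes silent or active, 0 passed in limma and 0 had an unadjusted p under 0.05. Their median was 0.02, and Kdm6a, a demethylase that removes the Polycomb mark, had the largest difference at 0.27 ± 0.16 (adjusted p = 0.588). It was 0.10 without sample-1 array 1 and 0.44 without array 2, and Pknox2 was 0.053 without sample-1 array 2 and 0.22 without array 1.

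Of 14 tested genes of retinoic acid synthesis, binding and reception, 0 passed in limma (0.622% of all tested probe sets did) and 4 had an unadjusted p under 0.05, as did 10.9% of all tested probe sets. The median was -0.16. Lower without overlap were 6 of the 14 and higher without overlap 1, where 20.1% and 21.1% of all tested probe sets were. The largest difference was that of Stra6, a receptor that takes up retinol. It measured 13.9 and 10.8 on the sample-2 arrays and 27.4 and 66.2 on the sample-1 arrays. Both sample-2 values lay under the filter on low signal, so Stra6 was tested only through its sample-1 values. Its difference did not pass (-1.08 ± 0.30, limma, adjusted p = 0.161). Leaving out a sample-1 array moved the difference both ways, to -1.54 without array 1 and to -0.62 without array 2. Of 7 tested upstream factors 0 passed in limma and 1 had an unadjusted p under 0.05, a share near the 10.9% of all tested probe sets. The largest difference was that of Gdf11, a signal that promotes posterior HOX expression in the mouse embryo, at 43.3 and 38.0 on the sample-2 arrays and 18.0 and 24.9 on the sample-1 arrays (0.60 ± 0.22, adjusted p = 0.327).

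**Figure D5:**
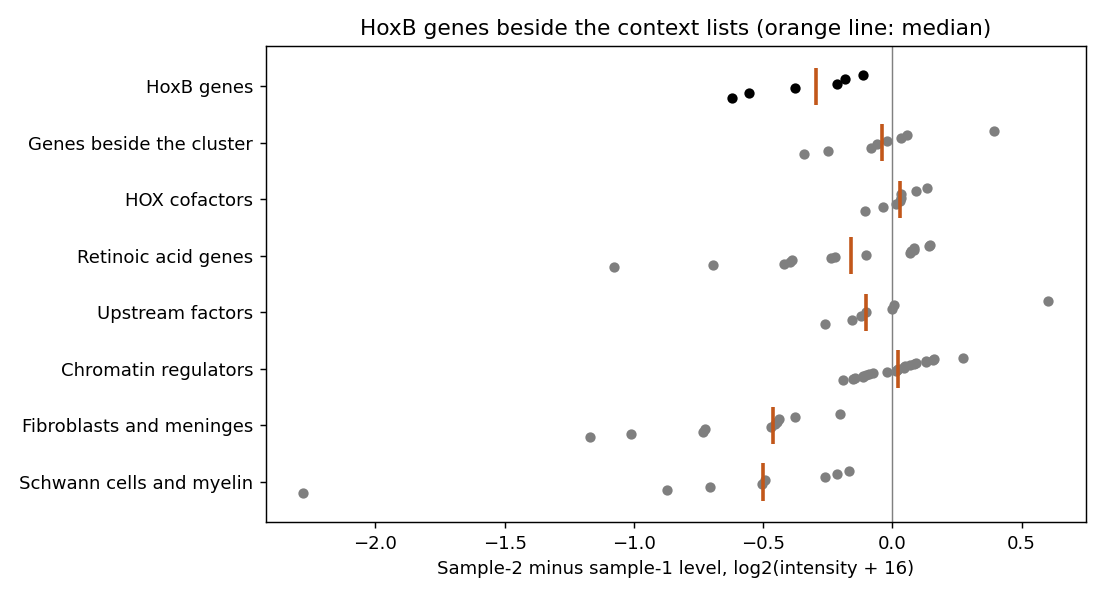
Sample-2 minus sample-1 level on the log2(intensity + 16) scale, a point for each gene's brightest tested probe set, with an orange line at the median of each list. The median is -0.30 for the HoxB genes, 0.03 for HOX cofactors and 0.02 for chromatin regulators, and of the 8 lists drawn those of fibroblasts and meninges (-0.46) and of Schwann cells and myelin (-0.50) lie furthest below 0. The other cell type lists are not drawn. Below 0 were the medians of skeletal muscle (-1.15), endothelium (-0.31), macrophages (-0.20) and satellite glia (-0.09). Above 0 were those of neutrophils (1.01), red cells (0.85), sensory neurons (0.07) and spinal cord neurons and glia (0.01).

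Markers of some cell types in the ganglia moved with the level as well. The lists were chosen with earlier results of these data known, so their counts beside the shares of all probe sets are not a test. All 10 markers of fibroblasts and meninges measured lower on the sample-2 arrays, and 7 passed in limma, where 48.9% of all tested probe sets were lower and 0.400% passed as lower. Their summed intensity was 13838 and 12733 on the sample-2 arrays and 21381 and 19215 on the sample-1 arrays. All 8 tested Schwann cell and myelin markers were lower and 2 passed, with a sum of 17308 and 13459 on the sample-2 arrays and 19653 and 17823 on the sample-1 arrays. Of 7 neutrophil markers 6 were higher past the threshold, as were 0.222% of all tested probe sets, with a sum of 6557 and 8234 on the sample-2 arrays and 3281 and 3892 on the sample-1 arrays. The summed intensity of 10 skeletal muscle markers was 2067 and 1335 on the sample-2 arrays and 1682 and 9110 on the sample-1 arrays, so sample-1 array 2 stood apart. All 10 of these markers were lower on average, though for several of them sample-1 array 1 lay below both sample-2 arrays. The 1 that passed had both sample-2 values under the filter on low signal. Of the 2 tested red cell markers 1, Slc4a1, was higher past the threshold, and the 3 on the array summed to 322 and 446 on the sample-2 arrays and 184 and 202 on the sample-1 arrays. Of the 14 tested sensory neuron markers 1 was higher past the threshold and 3 measured lower, with a median difference of 0.07. No marker of satellite glia, endothelium or macrophages passed in limma, though 6 of 6, 4 of 5 and 5 of 6 tested markers measured lower. Satellite glia markers summed to 10058 and 9728 on the sample-2 arrays and 10319 and 10829 on the sample-1 arrays. Endothelial markers summed to 339 and 281 on the sample-2 arrays and 389 and 363 on the sample-1 arrays, and macrophage markers to 584 and 569 on the sample-2 arrays and 697 and 733 on the sample-1 arrays. Without sample-1 array 2 the difference was -0.61 for Hoxb5, -0.37 for Hoxb6 and -0.56 for Hoxb9. It was -0.33 for the probe set of Hoxb8 and Hoxb7. With all 4 arrays these differences were -0.55, -0.38, -0.62 and -0.40 in the same order. No marker was listed at 0. HOX genes are expressed in several of these cell types, and the part of these cell types in the HoxB differences was not tested.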

How the data were processed

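Total RNA of mouse dorsal root ganglia was measured on Affymetrix arrays, 2 per level of ganglia, per the labels. The deposited values are 1 intensity per probe set on a linear scale. With the top and bottom 2% of values trimmed, the mean of each array was 150.0, so the authors had scaled them to a common target. The software behind them is not given in the sources used here. Intensities were taken as log2(intensity + 16), 64 control probe sets and those under the 40th percentile of the mean were left out, and 27022 of 45101 were fitted with limma 3.58.1 (R 4.3.3, lmFit and eBayes, spread trended on intensity) without covariates. There were 2 residual degrees of freedom, raised by 9.71 through the moderated variance, and the small number of arrays sets the precision. The fit was also run on data simulated from its own variances, which cannot show how well the model suits these arrays.

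Gene names came from the platform annotation, in which 34945 probe sets had 1 symbol, 932 several and 9160 none, and 34741 matched the RefSeq gene table (GRCm38.p6), used for names and for neighbouring genes. The rule named every HoxB gene and its paralogs with a tested probe set. The paralogs Hoxa4, Hoxc5, Hoxa13, Hoxc13 and Hoxd13 had no tested probe set and are not described. Of each context list it named the members past the threshold or, where none passed, the member with the largest difference. Only counts, medians and summed intensities are given for the marker lists. The members and lists were chosen with earlier results of these data known. Alternatives were pseudocounts of 1 and 64, the 60th percentile as the filter and no filter, quantile normalization, array medians set equal, array number as a block, no intensity trend, omission of probe sets ending in _x_at or _s_at, averaging a gene's probe sets, and leaving out each array.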

Additional observations from a re-analysis of the deposited data

How the results depend on the processing

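With 2 arrays per level, some alternatives could change a difference: other pseudocounts, quantile normalization, equal array medians and each array left out. Under these, Hoxb5, Hoxb6, Hoxb9, Hoxb4 and the probe set of Hoxb8 and Hoxb7 kept their direction. The filter settings, the block, the fit without trend and the omission of suffixed probe sets left these differences unchanged or absent. Such settings cannot test the direction. Averaging a gene's probe sets was run only for the median of HoxB genes. Of the HoxB probe sets 0 passed under each alternative except the array number as a block, under which 1 passed, that of Hoxb5 (limma, adjusted p = 0.0110). Stra6, whose sample-2 values lay under the filter, passed under the block too (limma, adjusted p = 0.0259). The numbers are not shown to pair the arrays: same-numbered arrays deviated together at a correlation of 0.03, and there are only 2 pairs. The count over all probe sets, 168, was 793 with the replicate block, 104 with arrays centred on their medians, 4 without the filter and 1 without the intensity trend, and 102 to 241 with an array left out. The median difference of HoxB genes was -0.35 with a pseudocount of 1, -0.20 with 64, -0.21 without the filter and -0.38 to -0.26 with an array left out. With an array left out, the difference ranged from -0.46 to 0.034 for Hoxb2, -0.29 to 0.062 for Hoxb3, -0.34 to 0.14 for Hoxb5os, -0.34 to 0.13 for Hoxa5, -0.17 to 0.032 for Hoxa9, -0.081 to 0.016 for Hoxd1 and -0.88 to 0.20 for Gm11517, each turning in sign without 1 or more arrays. Without suffixed probe sets Hoxa3 turned to -0.24, Hoxa5 became -0.30 and Hoxc6 -0.34. The cause was not tested.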

Other observations

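Rarg, a nuclear receptor for retinoic acid, was singled out after its values were seen and lies outside the rule for named genes. It measured 168 and 152 on the sample-2 arrays and 232 and 310.2 on the sample-1 arrays, with no overlap, and did not pass (-0.70 ± 0.14, limma, adjusted p = 0.0592). Aldh1a2, an enzyme of retinoic acid synthesis, was chosen in the same way. It measured 58.4 and 61.4 on the sample-2 arrays and 92.3 and 79.0 on the sample-1 arrays (-0.42 ± 0.16, limma, adjusted p = 0.364). Of the 14 tested retinoic acid genes 8 lay below 0. The other tested nuclear receptors lay above 0, Rarb at 0.08, Rxra at 0.15, Rxrb at 0.08 and Rxrg at 0.07. Of the other synthesis enzymes, Aldh1a1 was at -0.10, Aldh1a3 at -0.22 and Rdh10 at 0.14.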
